A study of Mus musculus with 28 samples.

Results

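EO771, a mouse breast cancer line, was compared with C2C12, a mouse skeletal muscle line, each grown without a partner. The comparison took every library that the labels mark as not co-cultured for these lines, 4 of EO771 and 4 of C2C12, out of 28 libraries in all. The study as a whole measured polyadenylated RNA of 3 mouse lines, alone or co-cultured, the third line being the lung fibroblasts MLg. Both groups had the genotype label WT, and the labels give the same DMEM with foetal bovine serum and penicillin-streptomycin for both. The labels call the C2C12 cells myotubes and name no step that would bring about differentiation. Each group is 1 established line, so tissue of origin, transformation, mouse strain and the state of growth differ together between the groups and cannot be told apart.

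Libraries are named here by the R number and the last number of their labels, and the labels do not state what either stands for. Nor do they say whether the libraries of a line came from separate cultures, so a p-value here reads only library-to-library spread, part or all of which may be technical. Values of single libraries are given below in a fixed order, which is R3-1, R3-2, R5-1 and R6-2 for EO771 and R2-1, R3-1, R3-2 and R5-1 for C2C12. Levels are in CPM, the deposited count of a gene over the total of its library, scaled to a total of 1000000. The EO771 libraries held 34088050 to 38984827 counts and the C2C12 libraries 54833532 to 96491326. Log2 fold changes are EO771 minus C2C12, with standard errors (SE), from edgeR's quasi-likelihood test, and adjusted p is by Benjamini-Hochberg over the 16494 genes tested.

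The 4 EO771 libraries were alike, with Pearson correlations of log2 CPM across genes of 0.988 to 0.991 between them. The C2C12 libraries ranged wider, from 0.973 to 0.993, and R3-1 and R3-2 stood apart from R2-1 and R5-1. R3-1 and R3-2 held far less RNA of contractile genes than the other C2C12 libraries. The summed level of the 22 thick filament genes was 11.5, 10.7, 10.6 and 10.7 CPM in the EO771 libraries, against 2913, 168, 388 and 3447 CPM in the C2C12 libraries. Some other muscle lists differed less between the C2C12 libraries. The dystrophin complex list summed to 1568, 1405, 1405 and 1728 CPM there, and the myoblast fusion list to 3607, 3202, 3197 and 3815 CPM. Counts or medians of the muscle lists are therefore given with and without C2C12 R3-1 and R3-2. In bulk RNA a smaller share of differentiated cells and less muscle RNA per cell cannot be told apart. Between the lines the same correlations were 0.62 to 0.642.

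The muscle markers of C2C12 were present in all of its libraries, while 4 of 5 epithelial markers checked were under 1 CPM in EO771. All 8 myotube markers checked (Myog, Mymk, Ckm, Acta1, Myh3, Tnnt3, Ryr1 and Chrna1) were higher in every C2C12 library than in every EO771 library. In EO771 the epithelial markers Epcam, Cdh1, Krt18 and Cldn7 averaged 0.514, 0.0562, 0.358 and 0.773 CPM, and Krt8 averaged 93.3 ± 2.35 CPM (SD, n = 4). The longer list of 45 epithelial genes, described further on, had 11 members of at least 5 CPM in EO771. The intermediate filament gene Vim, a mesenchymal marker, averaged 3039 ± 521 CPM in EO771 and 4424 ± 449.9 CPM in C2C12 (SD, n = 4 each). The pan-leukocyte gene Ptprc was at 0 CPM in EO771 and 0.00867 CPM in C2C12, and the macrophage gene Adgre1 was at 0 in both. The endothelial gene Pecam1 averaged 1.73 CPM in EO771 and 0.121 CPM in C2C12, and the adipocyte gene Adipoq 0.0293 CPM in EO771 and 0.0217 CPM in C2C12.

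Lists of markers of cell types that neither line should hold were read as a whole. Of 14 macrophage and other leukocyte markers 8 were tested, 5 higher and 1 lower in EO771, and their summed level was 67.6 to 78.7 CPM in EO771 and 20.9 to 27.1 CPM in C2C12. Most of the EO771 sum came from the lysosomal genes Laptm5 and Cd68 and the endotoxin receptor Cd14, at 32.4, 11.2 and 24.7 CPM, while Cd3e and Tyrobp were at 0. Cd14 was not called between the lines, although some alternative fits called it higher. Of 10 endothelial markers 6 were tested, 4 higher and 2 lower, with sums of 8.34 to 12.6 CPM in EO771 and 1.69 to 3.17 CPM in C2C12, and Emcn was at 0 in both. Of 10 adipocyte markers only Pparg, Cebpa and Lpl were tested, and all 3 were lower in EO771, with sums of 0.309 to 0.656 CPM in EO771 and 57.4 to 105.4 CPM in C2C12. Bone and cartilage markers were higher for 3 and lower for 4 of 7 tested, and neural and Schwann markers higher for 3 and lower for 3 of 8. Basal epithelial Krt14 and Trp63 averaged 0.0881 and 0.152 CPM in EO771 and 2.02 and 7.15 CPM in C2C12.

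The lines differed in most of what they expressed. Of the 16494 genes, 13296 (80.6%) were called, that is, passed an adjusted p of 0.05, with 6144 (37.2%) higher and 7152 (43.4%) lower in EO771. At least 4-fold apart and called were 5836 genes (35.4%), of which 2375 (14.4%) were higher and 3461 (21.0%) lower. These shares are the background for every count of genes below. The libraries of the lines did not overlap for 12766 genes (77.4%), with every EO771 library above for 6565 (39.8%) and every C2C12 library above for 6201 (37.6%). The median log2 fold change was -0.12. With library totals alone in place of TMM factors it was 0.06, so TMM scaling moved all values by -0.18. At 0 in all 4 EO771 libraries were 669 tested genes, and at 0 in all 4 C2C12 libraries 224.

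Skeletal myoblasts are committed by the factors MyoD and Myf5, and myogenin drives their differentiation. They then leave the cell cycle, fuse into multinucleate myotubes, and build the contractile sarcomere and the membrane systems that couple nerve signals to contraction. Carcinoma cells in culture instead keep cycling, which requires E2F-driven genes of DNA replication and, later in the cycle, mitotic genes held in check outside the cycle by the DREAM repressor complex. Myogenic factors bind E-boxes, whose letters are CANNTG. E2F factors bind sites such as TTTCGCGC or TTTGGCGC, and many mitotic promoters carry a cell cycle homology region, TTTGAA, near CCAAT boxes.

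Promoter sequences are shown for 2 muscle genes, 1 replication gene and 3 mitotic genes, since they set these motifs side by side in genes at opposite ends of the comparison. Each is RefSeq's sequence on build GRCm38.p6, from 250 bases before to 50 bases after a transcript start, 5′ to 3′ on the gene's own strand, with motif matches on either strand in capitals. Myog (chr1:134289754-134290053, + strand) encodes myogenin and Chrna1 (chr2:73580289-73580588, - strand) the muscle acetylcholine receptor alpha subunit. In both the capitals mark CANNTG.
Myog: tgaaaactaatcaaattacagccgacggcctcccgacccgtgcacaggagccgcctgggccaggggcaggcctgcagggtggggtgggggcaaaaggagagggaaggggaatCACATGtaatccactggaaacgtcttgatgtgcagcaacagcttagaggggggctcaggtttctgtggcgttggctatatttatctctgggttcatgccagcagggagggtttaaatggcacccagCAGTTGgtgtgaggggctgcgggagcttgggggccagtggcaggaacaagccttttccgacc
Chrna1: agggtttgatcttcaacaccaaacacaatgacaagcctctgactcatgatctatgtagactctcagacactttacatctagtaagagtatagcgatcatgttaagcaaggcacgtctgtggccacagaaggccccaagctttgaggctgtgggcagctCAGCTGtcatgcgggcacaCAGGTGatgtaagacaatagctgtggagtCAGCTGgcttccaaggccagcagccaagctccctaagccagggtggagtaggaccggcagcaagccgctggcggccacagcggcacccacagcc
Mcm5 (chr8:75109259-75109558, + strand) encodes a subunit of the replicative helicase. The capitals mark TTTCGCGC or TTTGGCGC, and its 2 matches, 1 on each strand, overlap.
Mcm5: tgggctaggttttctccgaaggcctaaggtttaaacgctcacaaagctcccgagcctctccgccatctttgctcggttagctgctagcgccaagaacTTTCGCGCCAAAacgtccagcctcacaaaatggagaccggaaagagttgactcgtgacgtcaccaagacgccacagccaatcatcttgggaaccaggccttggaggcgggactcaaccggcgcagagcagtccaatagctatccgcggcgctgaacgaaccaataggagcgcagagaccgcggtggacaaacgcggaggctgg
Cdc20 (chr4:118437294-118437593, - strand) encodes an activator of the anaphase-promoting complex, Plk1 (chr7:122159185-122159484, + strand) a mitotic kinase and Ccnb2 (chr9:70421505-70421804, - strand) cyclin B2. The capitals mark TTTGAA and CCAAT.
Cdc20: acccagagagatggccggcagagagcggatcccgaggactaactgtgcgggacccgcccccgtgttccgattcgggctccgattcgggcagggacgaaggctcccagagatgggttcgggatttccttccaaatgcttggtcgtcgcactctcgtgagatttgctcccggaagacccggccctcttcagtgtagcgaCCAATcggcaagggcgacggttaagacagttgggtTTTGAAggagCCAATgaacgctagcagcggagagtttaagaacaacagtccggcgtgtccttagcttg
Plk1: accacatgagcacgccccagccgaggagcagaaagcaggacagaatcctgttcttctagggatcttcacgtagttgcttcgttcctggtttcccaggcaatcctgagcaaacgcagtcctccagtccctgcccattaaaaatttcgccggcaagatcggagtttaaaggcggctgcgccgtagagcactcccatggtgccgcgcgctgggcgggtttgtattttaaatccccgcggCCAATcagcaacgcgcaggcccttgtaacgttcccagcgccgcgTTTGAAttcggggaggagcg
Ccnb2: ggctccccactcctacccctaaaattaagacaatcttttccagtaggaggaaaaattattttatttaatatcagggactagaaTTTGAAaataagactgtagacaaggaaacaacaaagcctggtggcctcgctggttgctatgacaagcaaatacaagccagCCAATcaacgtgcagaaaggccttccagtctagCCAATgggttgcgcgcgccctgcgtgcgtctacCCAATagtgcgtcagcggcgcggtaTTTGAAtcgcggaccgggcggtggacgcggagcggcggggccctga

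These motifs were counted in 32817 promoter windows of the same length from 26994 genes. CANNTG was in 53 of 64 windows of sarcomere genes (82.8%) and in 72.3% of all windows. The form CAGCTG was in 23 of those 64 (35.9%) and in 16.3% of all windows. TTTCGCGC or TTTGGCGC was in 11 of 36 windows of replication genes (30.6%), in 1 of 29 of mitotic genes (3.45%), in 0 of 64 of sarcomere genes and in 0.814% of all windows. TTTGAA together with CCAAT was in 19 of 29 windows of mitotic genes (65.5%), in 4 of 36 of replication genes (11.1%), in 2 of 64 of sarcomere genes (3.12%) and in 6.94% of all windows. Windows were found for 54 of 68 sarcomere genes, 29 of 36 replication genes and 27 of 32 mitotic genes. A match is a description of the letters, not of binding.

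Sarcomere genes were among those furthest below C2C12. Of the thick filament list, 20 of 22 genes were tested, and 19 were lower in EO771 and 1 higher, all at least 4-fold (median log2 fold change -7.48, and -8.59 without C2C12 R3-1 and R3-2). Of 19 tested thin filament genes 18 were lower, 16 of them at least 4-fold (median -6.31, and -7.15 without those libraries). Of 23 tested genes of the Z-disc and titin list 22 were lower, 21 at least 4-fold (median -6.92, and -7.61 without them). Genes that passed the filter on low counts only through the line where they were high had to differ, so these counts describe the members and test nothing about a list.

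Embryonic myosin heavy chain, Myh3, was at 5.40, 4.92, 4.40 and 4.63 CPM in EO771, against 888, 43.1, 117 and 724 CPM in C2C12 (log2 fold change -6.66, SE 0.93, edgeR adjusted p = 6.90e-05). The groups did not overlap, although C2C12 R3-1 and R3-2 were the lowest of their line. The adult fast chain Myh1 was at 0 counts in all EO771 libraries, against 363, 9.89, 35.4 and 535 CPM in C2C12, at least 11297-fold lower when EO771 is set to 3 counts over its 4 libraries (adjusted p = 0.000982). Skeletal alpha-actin, Acta1, was at 0.763, 1.31, 0.742 and 1.40 CPM in EO771, against 586, 33.4, 68.7 and 932 CPM in C2C12 (-8.71, SE 1.18, adjusted p = 5.64e-05). Here too every C2C12 library was above every EO771 library. The giant spring protein titin, Ttn, was at 1.23, 2.18, 2.43 and 2.50 CPM in EO771, against 503, 38.8, 120.1 and 578 CPM in C2C12 (-7.35, adjusted p = 2.04e-05). For each of these genes C2C12 R3-1 and R3-2 were the lowest libraries of their line, and in the fit without them Ttn was at -8.15 (adjusted p = 3.60e-10), Myh3 was at -7.52 (adjusted p = 6.60e-11) and Acta1 at -9.62 (adjusted p = 5.36e-10).

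Some contractile genes did not follow this pattern. Tpm1 and Tpm3 encode tropomyosins that non-muscle cells also make. Tpm3 averaged 554 ± 24.3 CPM in EO771 and 262 ± 16.4 CPM in C2C12 and was higher (0.90, adjusted p = 1.13e-06), while Tpm1 averaged 504 ± 34.4 CPM in EO771 and 803 ± 14.9 CPM in C2C12 and was lower by less than 2-fold (-0.86, adjusted p = 7.01e-06). The filamin C gene Flnc, an actin crosslinker of the Z-disc, averaged 415 ± 70.5 CPM in EO771 and 485 ± 97.0 CPM in C2C12, and was called lower (-0.40, adjusted p = 0.0281) although the libraries overlapped. Its call was lost within the R3 libraries of each line (-0.30, adjusted p = 0.126). The cardiac gene Mybpc3 was the thick filament member called higher, at only 0.588 ± 0.1998 CPM in EO771. The intermediate filament desmin, Des, was at 1.14, 0.821, 0.3996 and 0.505 CPM in EO771, against 441, 171, 194 and 579 CPM in C2C12, and differed less between the C2C12 libraries than the myosins did.

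The myosin heavy chains of C2C12 were compared per kilobase of exon. Myh3 made up 66.7, 76.5, 70.5 and 53.1% of the 6 skeletal chains in the C2C12 libraries, and averaged 66.7%. Myh1 averaged 25.1% and Myh4, the fastest adult chain, 6.18%. Adult fast Myh2, perinatal Myh8 and slow Myh7 averaged 1.02%, 0.554% and 0.439%. Embryonic myosin was thus the main chain in every C2C12 library, the R3 ones included.

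**Figure D1:**
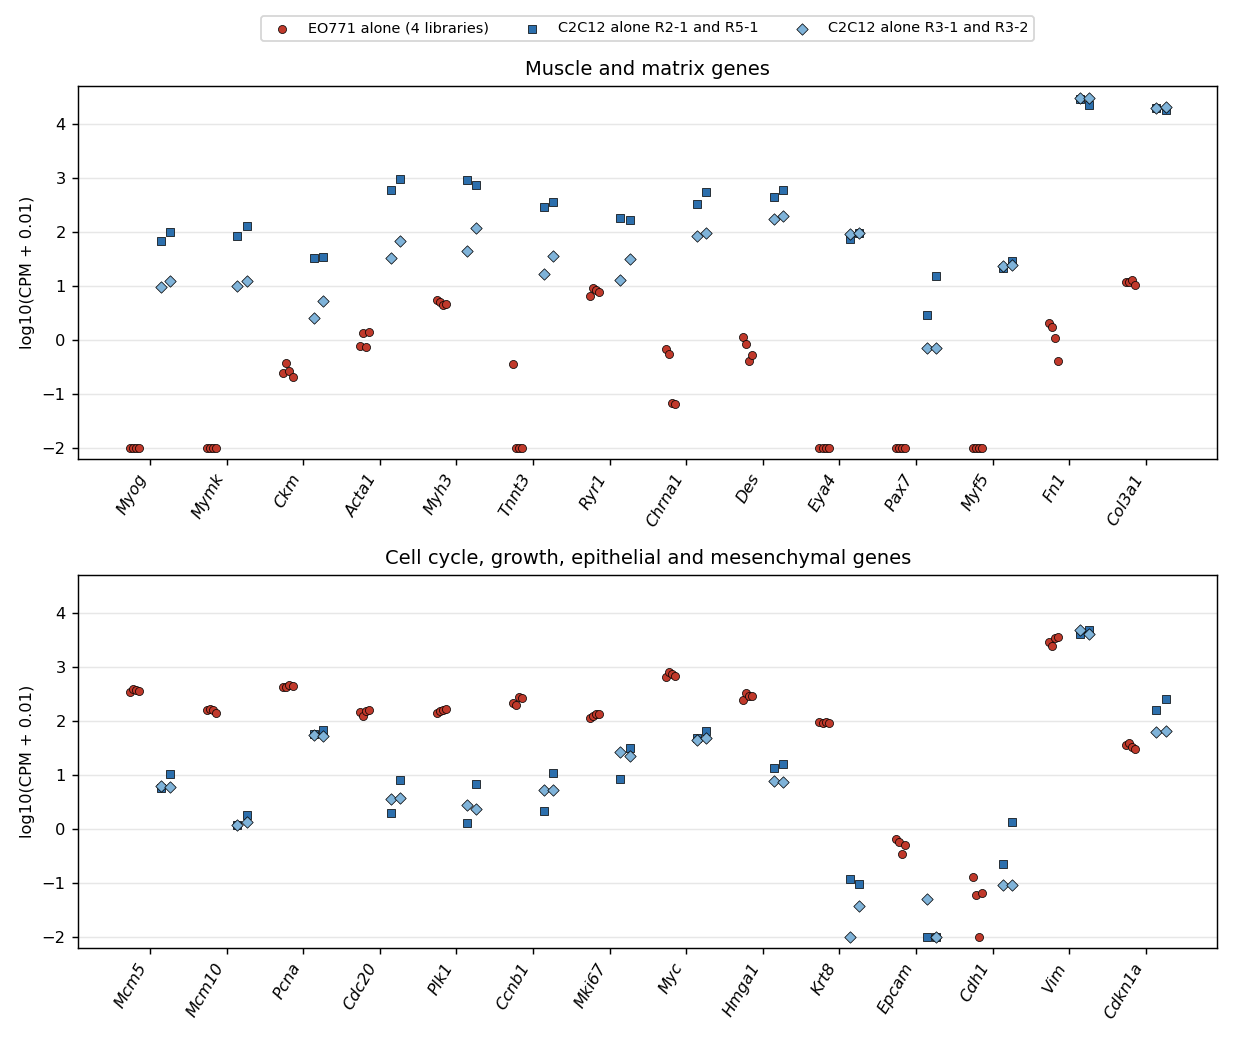
Level of 28 genes in each library, on a log10 scale of CPM with 0.01 added, EO771 (circles) left of C2C12 (squares for R2-1 and R5-1, diamonds for R3-1 and R3-2). Every C2C12 library sits above every EO771 library for the muscle and matrix genes, the diamonds lowest for Myog, Mymk, Ckm, Acta1 and Myh3, and every EO771 library sits above for the cell cycle genes.

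Transcription factors restricted to muscle were at or near 0 in EO771. Of 15 tested members, 12 were lower, 10 of them at least 4-fold, 2 were higher and 1 was not called; 7 were at 0 in all EO771 libraries. In the fit without C2C12 R3-1 and R3-2, 13 of 15 were lower and 2 higher. The list's median was -7.97, or -6.18 with the members at 0 set to 3 counts. Myog was at 0 counts in EO771, against 66.5, 9.48, 12.2 and 98.4 CPM in C2C12, at least 2235-fold lower (adjusted p = 0.000251). Its upstream factors Myod1 and Myf5 were also at 0 in EO771. In C2C12 Myod1 was at 37.9, 13.0, 15.3 and 69.5 CPM, and Myf5, which marks undifferentiated myoblasts, at 21.1, 23.6, 23.9 and 28.4 CPM. Myf5 was thus nearly level across the C2C12 libraries, while Myog was far lower in R3-1 and R3-2 than in R2-1 and R5-1. The satellite cell factor Pax7 was at 0 counts in EO771, against 2.92, 0.684, 0.698 and 15.0 CPM in C2C12, where it was highest in R5-1. The transcription cofactor gene Eya4 was at 0 CPM in EO771, against 71.9, 91.7, 95.7 and 95.8 CPM in C2C12, where it was lowest in R2-1. Tead4, a TEAD factor that non-muscle cells use as well, went the other way, at 96.5, 120.4, 109 and 106 CPM in EO771, against 13.0, 3.98, 4.91 and 17.0 CPM in C2C12 (3.33, SE 0.40, adjusted p = 2.45e-05). Mef2d was not called (-0.20, adjusted p = 0.202), but was lower without C2C12 R3-1 and R3-2 (-0.42, adjusted p = 0.00635).

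Most fusion genes were lower in EO771. Of 15 tested, 12 were lower and 1 higher, and 2 were not called; without C2C12 R3-1 and R3-2, 11 were lower and 2 higher. Mymk, the fusogen myomaker, was at 0 counts in EO771, against 84.2, 9.97, 12.4 and 130.1 CPM in C2C12, at least 2836-fold lower (adjusted p = 0.000387). M-cadherin, Cdh15, was at 0.0587, 0, 0.0571 and 0 CPM in EO771, against 98.0, 44.0, 49.5 and 141 CPM in C2C12 (-11.58, adjusted p = 6.54e-08). The integrin beta-1 gene Itgb1 averaged 946 ± 27.7 CPM in EO771 and 949 ± 26.7 CPM in C2C12 and was not called (-0.19, SE 0.08, adjusted p = 0.0541). Myoferlin, Myof, a membrane repair protein, was higher in EO771 (0.42, adjusted p = 0.00223).

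Genes of the membrane systems that trigger contraction were lower as well. Of 20 tested genes of excitation-contraction coupling, 18 were lower, all at least 4-fold, with a median of -7.13, or -7.50 without C2C12 R3-1 and R3-2. The others were Atp2a2, called higher, and the chloride channel gene Clcn1, not called. The dihydropyridine receptor gene Cacna1s, the voltage sensor, averaged 0.0147 CPM in EO771 and 20.4 ± 20.9 CPM in C2C12. Calsequestrins bind calcium in the store, and Casq2 was at 0 counts in EO771, against 229, 9.04, 20.1 and 292 CPM in C2C12, at least 6594-fold lower (adjusted p = 0.000940). Ryr1, the calcium release channel, was at 6.57, 9.05, 8.33 and 7.80 CPM in EO771, against 179, 12.6, 30.7 and 162 CPM in C2C12 (-3.74, SE 0.73, adjusted p = 0.000785), with C2C12 R3-1 close to the EO771 libraries. Without C2C12 R3-1 and R3-2 its difference was -4.57, and in the R3 libraries of each line alone -1.70 (adjusted p = 1.82e-05). The potassium channel gene Kcnj2, whose current helps start differentiation of human myoblasts, was at 0 counts in EO771, against 202, 200.1, 203 and 254 CPM in C2C12, where R5-1 was the highest. The calcium pump Atp2a1 of fast muscle was lower (-8.73, adjusted p = 2.25e-05) and the general pump Atp2a2 higher in EO771, at 607, 682, 705 and 638 CPM, against 389.8, 235, 258 and 419 CPM in C2C12 (0.85, adjusted p = 0.000566).

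Of 11 tested genes of the neuromuscular junction 9 were lower in EO771, 7 of them at least 4-fold, and 2 were not called. Without C2C12 R3-1 and R3-2, 11 of 12 were lower, 9 of them at least 4-fold, and 1 was higher. Chrna1 was at 0.675, 0.539, 0.0571 and 0.0561 CPM in EO771, against 321, 83.8, 95.1 and 544 CPM in C2C12 (-9.75, SE 0.89, adjusted p = 2.74e-06). The fetal receptor subunit Chrng averaged 0.0808 CPM in EO771 and 106 CPM in C2C12, and its adult replacement Chrne 0.0634 CPM in EO771 and 0.672 CPM in C2C12. The agrin receptor pair Musk and Lrp4 was lower (-7.32 for Lrp4, adjusted p = 1.29e-09). Agrin itself, Agrn, the ligand that clusters the receptors, averaged 172 ± 39.1 CPM in EO771 and 132 ± 49.1 CPM in C2C12 and was not called (0.18, SE 0.28, adjusted p = 0.565), but was higher without C2C12 R3-1 and R3-2 (0.71, adjusted p = 0.0178).

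Of 16 tested dystrophin complex genes 14 were lower and 1, the dystrobrevin gene Dtnb, higher in EO771 (2.51, adjusted p = 2.02e-08). Leaving out C2C12 R3-1 and R3-2, 15 of 17 were lower and 1 higher. Among the lower genes was Lama2, the laminin chain that anchors the complex outside the cell, at 0.0140 CPM in EO771 and 48.6 ± 15.9 CPM in C2C12. Sgca, a muscle sarcoglycan, averaged 0.0143 CPM in EO771 and 27.3 CPM in C2C12, while dystroglycan, Dag1, which many cells make, averaged 175 ± 24.4 CPM in EO771 and 687 ± 58.2 CPM in C2C12 (-2.15, adjusted p = 1.96e-08). Muscle RNA-binding and splicing factors went both ways, 7 of 17 higher and 10 lower, and 6 of 17 higher and 10 lower without C2C12 R3-1 and R3-2. Ptbp1, which represses muscle exons, was at 459, 521, 556 and 521 CPM in EO771, against 126, 134, 138 and 132 CPM in C2C12 (1.77, SE 0.09, adjusted p = 3.30e-08). Mbnl1, which promotes the adult muscle splicing pattern, was lower (-1.88, adjusted p = 4.38e-06), as was the factor Celf2 (-7.42, adjusted p = 1.09e-10). Of 18 tested muscle energy genes 12 were lower, 7 of them at least 4-fold, and 2 higher. Without C2C12 R3-1 and R3-2, 16 of 21 were lower, 12 of them at least 4-fold, and 2 higher. Creatine kinase Ckm was at 0.235, 0.359, 0.257 and 0.196 CPM in EO771, against 33.3, 2.48, 5.26 and 33.7 CPM in C2C12, and muscle enolase Eno3 at 12.8, 11.3, 10.7 and 13.6 CPM in EO771, against 183, 206, 210.1 and 265 CPM in C2C12. Of 16 tested atrophy and autophagy genes, 7 were lower and 5 higher, and without C2C12 R3-1 and R3-2, 9 were lower and 4 higher. The muscle ubiquitin ligase Trim63 was at 0 counts in EO771 and averaged 9.22 CPM in C2C12, and the transcription factor Foxo1, which drives it, averaged 0.00702 CPM in EO771 and 44.5 CPM in C2C12.

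**Figure D2:**
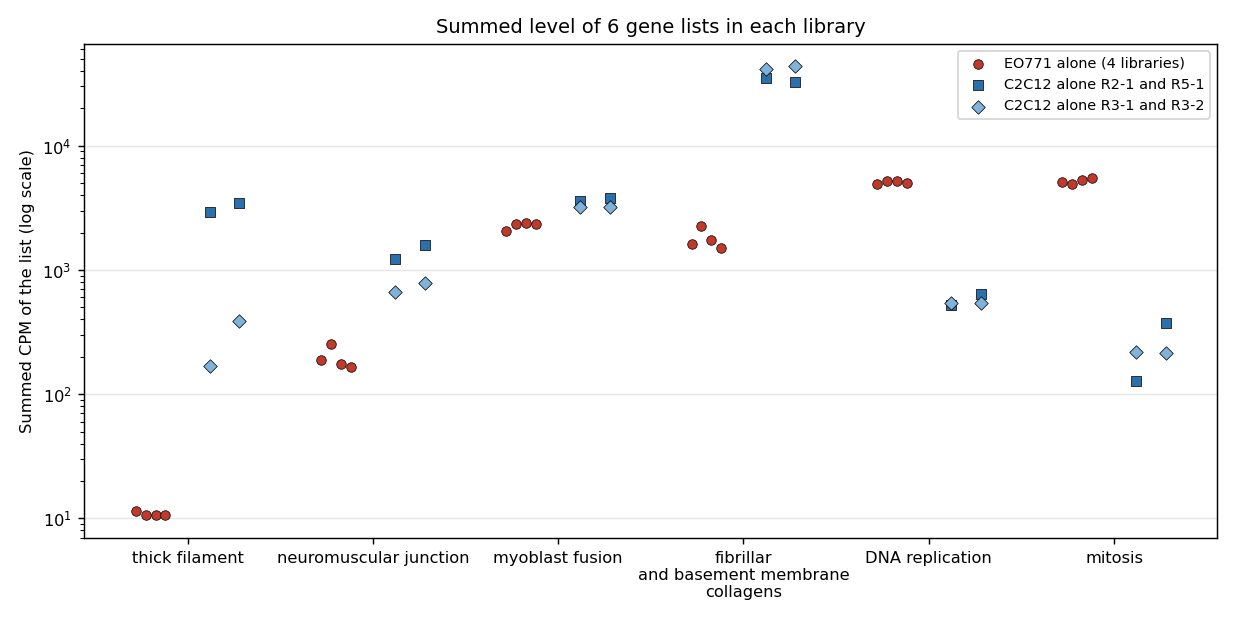
Summed CPM of 6 gene lists in each library, on a log axis, EO771 (circles) left of C2C12 (squares for R2-1 and R5-1, diamonds for R3-1 and R3-2). The diamonds are below the squares for the thick filament and neuromuscular junction lists and above them for collagens, while replication and mitosis are highest in EO771.

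Cell cycle genes formed the opposite pole. All 36 DNA replication genes were tested and all were higher in EO771, 30 of them at least 4-fold, and in each every EO771 library was above every C2C12 library (median 2.84). All 32 mitotic genes were at least 4-fold higher, again without overlap (median 4.65). Without C2C12 R3-1 and R3-2 the medians were 2.74 and 4.37.

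Among replication genes, Mcm5 was at 339, 397, 375 and 351 CPM in EO771, against 5.71, 6.23, 6.06 and 10.6 CPM in C2C12 (5.50, SE 0.20, adjusted p = 2.82e-09). Mcm10, which helps start the helicase, was at 161, 165, 157 and 141 CPM in EO771, against 1.17, 1.18, 1.37 and 1.84 CPM in C2C12 (6.63, SE 0.14, adjusted p = 2.19e-10). In C2C12 both were highest in R5-1. The clamp Pcna, which also serves DNA repair, differed less between the lines. It was at 425, 419.6, 457 and 434 CPM in EO771, against 57.7, 54.7, 52.1 and 66.5 CPM in C2C12 (2.73, adjusted p = 1.26e-09). The origin recognition gene Orc6 had the smallest difference of the list (0.66, adjusted p = 0.00202).

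Mitotic genes varied more between the C2C12 libraries than replication genes did, with a median SD of 0.649 against 0.154 on the log2 CPM scale over members of at least 5 CPM. Plk1 was at 138, 152, 156 and 166 CPM in EO771, against 1.28, 2.77, 2.29 and 6.80 CPM in C2C12 (5.36, SE 0.43, adjusted p = 1.00e-06). Cdc20 was at 145, 122, 149 and 158 CPM in EO771, against 1.99, 3.54, 3.78 and 8.09 CPM in C2C12 (4.87, SE 0.36, adjusted p = 5.64e-07). Cyclin B1, Ccnb1, was at 218, 193, 271 and 266 CPM in EO771, against 2.15, 5.19, 5.28 and 10.9 CPM in C2C12 (5.16, SE 0.42, adjusted p = 1.07e-06). For all of these C2C12 R2-1 was the lowest library and R5-1 the highest, while both had high muscle gene levels. The topoisomerase gene Top2a was the most abundant of the list in EO771, at 754, 675, 765 and 801 CPM, against 13.7, 25.0, 26.3 and 37.7 CPM in C2C12 (4.68, adjusted p = 9.19e-08). The proliferation marker Mki67 had the smallest difference of the mitotic list, at 114, 121, 137 and 132 CPM in EO771, against 8.39, 26.1, 22.7 and 31.6 CPM in C2C12 (2.31, SE 0.33, adjusted p = 7.96e-05).

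The regulators of cycle entry and exit were mixed: 17 of 26 tested were higher and 7 lower in EO771. Cyclin D2, Ccnd2, was at 824, 1060.1, 1010.5 and 846 CPM in EO771, against 41.4, 39.0, 41.2 and 35.6 CPM in C2C12 (4.39, adjusted p = 7.17e-10). The D-type cyclin Ccnd3, which accumulates in differentiating myoblasts, was lower (-1.41, adjusted p = 1.25e-05). The retinoblastoma gene Rb1, which holds myotubes out of the cycle, averaged 5.03 ± 1.04 CPM in EO771 and 47.7 ± 3.55 CPM in C2C12 (-3.42, adjusted p = 1.12e-08). Its relative Rbl2 was lower too (-2.72), and the third pocket protein gene Rbl1, itself an E2F target, higher (1.54). The inhibitor Cdkn1a was at 36.4, 39.7, 32.3 and 30.7 CPM in EO771, against 157, 61.7, 63.8 and 258 CPM in C2C12 (-2.11, SE 0.40, adjusted p = 0.000637), lowest in R3-1 and R3-2 among the C2C12 libraries. Cdkn2a and Cdkn2b, neighbouring inhibitor genes, were at 0 counts in all 8 libraries, while Mtap beside them averaged 159 ± 11.9 CPM in EO771 and 84.5 ± 21.9 CPM in C2C12.

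Matrix genes were among the most abundant of C2C12 and were mostly lower in EO771, several of them near 0. The fibronectin gene Fn1 took 2.76% of all C2C12 counts, the collagen III gene Col3a1 1.92% and the biglycan gene Bgn 0.826%. Of 18 tested collagens 16 were lower and 1 higher in EO771 (median -6.84), and of 30 tested matrix glycoproteins and crosslinkers 26 were lower and 3 higher (median -6.61). Even so, 9 of those collagens and 15 of those glycoproteins and crosslinkers averaged at least 5 CPM in EO771. Fn1 was at 2.02, 1.74, 1.06 and 0.393 CPM in EO771, against 28631, 29793, 29758 and 22054 CPM in C2C12 (-14.55, SE 0.50, adjusted p = 2.13e-09). Col1a2, a chain of collagen I, was at 1.26, 0.795, 1.54 and 0.702 CPM in EO771, against 2990.3, 4263, 4717 and 2886 CPM in C2C12 (-11.95, SE 0.37, adjusted p = 1.25e-09). Small proteoglycans that bind collagen followed, with decorin, Dcn, at 0.104 CPM in EO771 and 1656 ± 732 CPM in C2C12. Periostin, Postn, and matrix Gla protein, Mgp, averaged 0.0220 and 0.0211 CPM in EO771, against 853 ± 351 and 531 ± 104.9 CPM in C2C12. Osteopontin, Spp1, was lower but still well expressed in EO771, at 340.0, 283, 289 and 309.7 CPM, against 2407, 2581, 2210.1 and 2084 CPM in C2C12 (-3.11, adjusted p = 6.48e-09). The lysyl oxidase Lox, which crosslinks collagen, averaged 0.232 CPM in EO771 and 1231 CPM in C2C12. The matricellular gene Thbs1 and the collagen VI genes were highest in C2C12 R3-1 and R3-2, the libraries lowest in muscle RNA. Thbs1 averaged 1.70 CPM in EO771, against 5056, 10731, 11120.0 and 3606 CPM in C2C12.

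Several basement membrane genes, named after their values were seen, were less than 2-fold apart, while Lama2, given above, was not among them. The collagen IV genes Col4a1 and Col4a2 averaged 522 ± 102 and 339 ± 67.0 CPM in EO771, against 645 ± 142 and 463 ± 70.4 CPM in C2C12, and were called lower (-0.50 and -0.64, adjusted p = 0.0339 and 0.00395) although the libraries overlapped. The call of Col4a1 was lost without C2C12 R3-1 and R3-2 (-0.21, adjusted p = 0.316). The laminin genes Lamb1 and Lamc1 were higher in EO771 (0.75 and 0.80, adjusted p = 0.000226 and 0.000141), and Lama5 was not called (-0.17, adjusted p = 0.147). Collagen VII, Col7a1, which anchors epithelia, was at 102, 139, 135 and 96.8 CPM in EO771, against 8.52, 3.62, 6.37 and 10.3 CPM in C2C12 (3.88, SE 0.27, adjusted p = 3.83e-07).

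Of 18 tested metalloproteinase and inhibitor genes 13 were lower and 5 higher in EO771. The gelatinase Mmp2, its activator Mmp14 and the inhibitor Timp2 averaged 4.296 ± 0.573, 157 ± 8.04 and 43.4 ± 5.32 CPM in EO771, against 1758 ± 481, 1859 ± 269.6 and 1614 ± 58.0 CPM in C2C12. The stromelysin Mmp3 was at 107, 94.2, 109 and 98.4 CPM in EO771, against 3.41, 0.0207, 0.112 and 0.638 CPM in C2C12 (6.59, SE 0.92, adjusted p = 7.33e-05). The gelatinase Mmp9, the stromelysin Mmp10 and the collagenase Mmp13 were higher as well (4.95, 5.88 and 6.88). Of 20 tested integrin genes 5 were higher and 13 lower. The collagen-binding Itga1 and Itga2 and the laminin-binding Itga6 were higher (3.74, 6.57 and 2.35). The muscle laminin receptor Itga7 was lower (-3.29, adjusted p = 2.10e-06). Itgb7, known from lymphocytes, was at 84.5, 103, 88.8 and 90.7 CPM in EO771, against 0.675, 0.415, 0.544 and 0.725 CPM in C2C12 (7.12, SE 0.15, adjusted p = 2.07e-10).

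Epithelial genes differed in both directions. Of 45, 27 were tested, 14 of them higher, 11 at least 4-fold, and 12 lower, 7 at least 4-fold, and Cdh1, Cdh3, Krt5, Krt7, Krt19 and Dsp were too low to test. The list summed to 532, 617, 574 and 535 CPM in EO771, against 939, 867, 854 and 879 CPM in C2C12. Krt8 was at 94.6, 91.0, 96.0 and 91.7 CPM in EO771, against 0.109, 0, 0.0279 and 0.0870 CPM in C2C12 (10.66, SE 0.34, adjusted p = 1.41e-09), yet its pairing partner Krt18 was at 0.469, 0.257, 0.342 and 0.365 CPM in EO771, against 0, 0, 0.0838 and 0 CPM in C2C12. The membrane protease St14 averaged 24.6 ± 3.82 CPM in EO771 and had 2 counts in all in C2C12. The epithelial repressor Ovol1 averaged 7.16 CPM in EO771 and 0.0185 CPM in C2C12. The adhesion genes F11r and Jup were instead lower in EO771 (-7.79 and -5.03, adjusted p = 1.99e-08 and 5.80e-10), as was Pkp1, at 0 counts in EO771 and 57.5 CPM in C2C12.

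Among 15 tested mammary lineage and hormone receptor genes 4 were higher and 10 lower. Foxa1, a pioneer factor of luminal cells, averaged 3.34 ± 0.590 CPM in EO771 and had 0 counts in C2C12, at least 325-fold higher (adjusted p = 1.14e-06). Tfap2a, another factor of the mammary and surface ectoderm lineages, was at 38.8, 35.2, 38.7 and 40.3 CPM in EO771, against 1.84, 1.69, 1.42 and 1.13 CPM in C2C12 (4.46, adjusted p = 5.08e-09). The oestrogen receptor gene Esr1 was lower in EO771, at 9.42, 8.39, 8.13 and 8.42 CPM, against 30.9, 41.1, 37.0 and 24.0 CPM in C2C12 (-2.15, SE 0.19, adjusted p = 1.93e-06). Esr2 averaged 1.71 CPM in EO771 and 0.0233 CPM in C2C12, and the progesterone receptor gene Pgr 0 CPM in EO771 and 0.0327 CPM in C2C12. Gata3, a luminal factor, averaged 0.526 CPM in EO771 and 3.85 CPM in C2C12, and Erbb2 37.5 CPM in EO771 and 67.4 CPM in C2C12.

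Transcription factors of epithelial-mesenchymal transition and mesenchymal markers were lower in EO771 for 16 of 18 tested, 13 of them at least 4-fold. N-cadherin, Cdh2, averaged 0.647 ± 0.176 CPM in EO771 and 106 ± 6.53 CPM in C2C12 (-7.55, adjusted p = 3.68e-10), so both Cdh1 and Cdh2 were under 1 CPM in EO771. The repressors Zeb1, Snai1 and Snai2, which silence Cdh1, averaged 56.1 ± 5.59, 6.23 ± 0.451 and 28.5 ± 3.59 CPM in EO771, against 203 ± 20.4, 34.2 ± 4.76 and 99.9 ± 20.6 CPM in C2C12. Twist1, which drives loss of epithelial traits and represses myogenesis, was at 38.8, 25.1, 32.9 and 34.5 CPM in EO771 and 0 counts in C2C12, at least 3192-fold higher (adjusted p = 4.85e-08). Smooth muscle actin, Acta2, averaged 0.320 CPM in EO771 and 1229.6 CPM in C2C12.

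HOX genes record position along the body, and the lines differed in the HOX genes they expressed. Of 39 HOX genes 28 were tested, 8 higher and 20 lower in EO771, none of them with overlapping libraries. Hoxa9, Hoxa10 and Hoxa11 averaged 0.795 ± 0.128, 6.70 ± 2.07 and 0 CPM in EO771, against 49.98 ± 6.24, 99.3 ± 11.4 and 33.0 ± 3.10 CPM in C2C12. Hoxd genes were the reverse. Hoxd9 was at 22.8, 22.3, 27.1 and 21.1 CPM in EO771 and 0 counts in C2C12, at least 2270.1-fold higher (adjusted p = 2.36e-08), and Hoxd8 was at 17.5, 15.2, 15.8 and 13.5 CPM in EO771 and 0 counts in C2C12, at least 1511-fold higher (adjusted p = 4.67e-08). Hoxb6 averaged 7.03 ± 1.25 CPM in EO771 and 0.0247 CPM in C2C12. Hoxc genes were shared up to Hoxc10, at 13.7 ± 1.41 CPM in EO771 and 65.0 ± 8.41 CPM in C2C12. Hoxc11 and Hoxc13 were at 0 counts in EO771, against 47.4 ± 2.75 and 6.03 ± 1.36 CPM in C2C12.

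**Figure D3:**
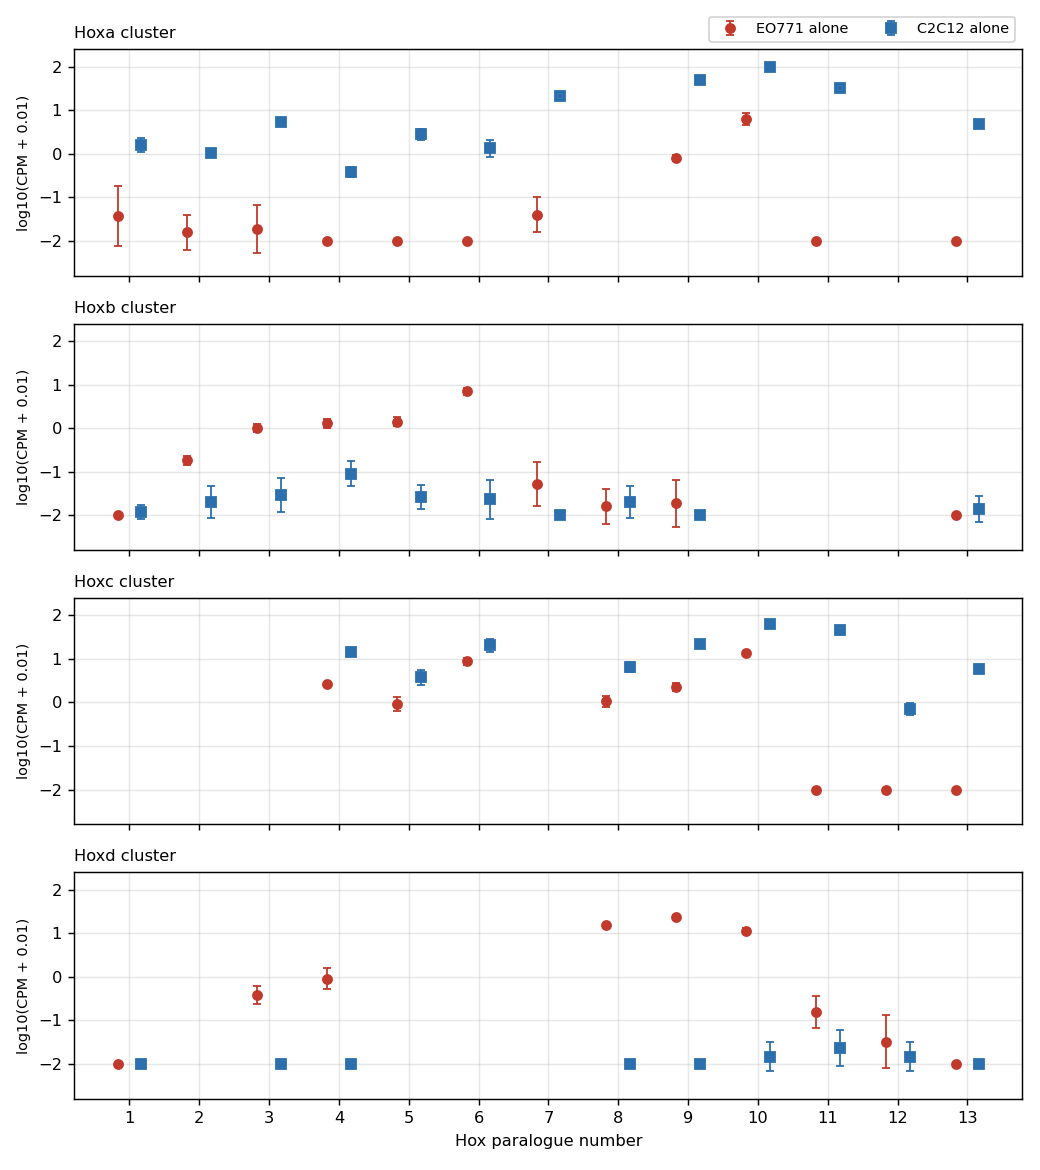
Mean level (log10 of CPM with 0.01 added) of every annotated HOX gene by paralogue number, in a panel for each cluster, EO771 (circles) left of C2C12 (squares), with bars of 1 SD over 4 libraries. C2C12 is higher throughout the Hoxa and Hoxc panels, and EO771 is higher for Hoxb3 to Hoxb6 and Hoxd4 to Hoxd10.

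Oncogenes and tumour suppressors were higher in EO771 more often than lower. Of 25 tested 15 were higher and 7 lower in EO771. Myc, a driver of growth and cycling, was at 638, 790.4, 732 and 669 CPM in EO771, against 48.6, 43.7, 47.8 and 63.8 CPM in C2C12 (3.62, SE 0.12, adjusted p = 1.75e-09). The chromatin proteins Hmga1 and Hmga2, common in embryonic and cancer cells, were higher (4.52 and 2.96). Lin28b, which blocks let-7 maturation, averaged 29.8 ± 3.17 CPM in EO771 and had 2 counts in all in C2C12.

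Ligands and receptors of growth factor signalling were mostly lower in EO771, 20 of 31 tested against 7 higher. The exceptions included EGF receptor ligands. Amphiregulin, Areg, was at 65.1, 53.5, 53.8 and 62.8 CPM in EO771, against 0.511, 0.736, 0.544 and 0.841 CPM in C2C12 (6.28, SE 0.18, adjusted p = 9.16e-10), and epiregulin, Ereg, and Hbegf were higher too (2.00 and 1.70). Their receptor gene Egfr was lower (-1.75, adjusted p = 8.30e-06). The hepatocyte growth factor receptor gene Met was higher in EO771 (1.97, adjusted p = 8.38e-09), whereas its ligand Hgf averaged 0.216 ± 0.0606 CPM in EO771 and 205 ± 16.9 CPM in C2C12 (-10.06, adjusted p = 5.41e-11). The stromal receptor Pdgfrb averaged 80.8 ± 10.6 CPM in EO771 and 1179.5 ± 218 CPM in C2C12 (-4.06, adjusted p = 1.30e-08).

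Of 22 tested genes of the insulin-like growth factor system and imprinted growth genes 14 were lower and 6 higher; the median was -6.40, or -4.79 with members at 0 set to 3 counts. Igf1, a ligand that drives muscle growth, was at 0 counts in EO771, against 159, 239, 241 and 162 CPM in C2C12, at least 9595-fold lower (adjusted p = 8.68e-08). Its receptor gene Igf1r was slightly higher in EO771 (0.51, adjusted p = 0.00133). The imprinted genes H19, Peg3 and Peg10 averaged 0.0504, 0.0571 and 0 CPM in EO771, against 461, 241 and 40.4 CPM in C2C12. Igfbp5, a binding protein induced as myoblasts differentiate, averaged 0.0143 CPM in EO771, against 1158, 213, 242 and 2070.1 CPM in C2C12, again lowest in R3-1 and R3-2. Igf2, which shares its imprinted domain with H19, was at 0 CPM in EO771 and 0.0833 CPM in C2C12 and was not tested.

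TGF-beta and activin family genes were lower for 19 of 26 and higher for 4. The receptor Tgfbr2 averaged 7.03 ± 0.528 CPM in EO771 and 370.3 ± 39.8 CPM in C2C12 (-5.90, adjusted p = 1.85e-10), and the BMP antagonist Grem1 0.211 CPM in EO771 and 611 CPM in C2C12. Gdf15, a stress-induced member linked to cachexia, was higher, at 12.7, 13.1, 9.504 and 15.4 CPM in EO771, against 1.73, 1.60, 1.48 and 3.51 CPM in C2C12 (2.44, SE 0.28, adjusted p = 1.84e-05). Notch and Wnt genes were lower for 21 of 26 and higher for 3. Notch3, a receptor of myoblasts and mural cells, averaged 0.0471 CPM in EO771 and 157 CPM in C2C12, and the Notch target Hes1 1.47 CPM in EO771 and 55.5 CPM in C2C12. All 3 genes called higher were Wnt ligands, Wnt5a, Wnt5b and Wnt6, with Wnt5a at 13.6, 17.0, 11.5 and 13.7 CPM in EO771, against 0.401, 0.166, 0.251 and 0.464 CPM in C2C12 (5.29, adjusted p = 6.85e-08).

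The p53 pathway had 10 of 23 genes higher and 11 lower, near the shares among all genes tested (37.2% higher and 43.4% lower). Trp53 was at 250.3, 251, 259 and 252 CPM in EO771, against 78.1, 72.8, 77.3 and 82.7 CPM in C2C12 (1.52, adjusted p = 6.92e-09). Its targets Sesn2, Tigar and Bax were higher (2.95, 3.72 and 1.59), and Btg2, Phlda3, Ccng1 and Fas lower (-8.05, -3.73, -2.63 and -5.36).

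Immune genes were called in both directions, and the counts that follow stand beside 37.2% higher and 43.4% lower among all genes tested. Of 19 tested MHC class I genes 8 were higher and 8 lower. The heavy chain H2-D1 was higher in EO771, at 289, 352, 292 and 303 CPM, against 111, 109, 113 and 104 CPM in C2C12 (1.31, adjusted p = 1.81e-07), and H2-K1 lower, at 52.7, 54.7, 40.2 and 47.3 CPM, against 144, 143, 142 and 126 CPM in C2C12 (-1.70, adjusted p = 1.85e-07). The genes of this family resemble each other and vary by strain, so reads may be split between them. The immunoproteasome subunit Psmb8 and the class I activator Nlrc5 were higher (5.82 and 3.31). Of 31 tested interferon response genes 9 were higher and 14 lower. Rsad2, an antiviral effector, was at 12.4, 9.47, 5.48 and 6.71 CPM in EO771, against 0.292, 0.228, 0.0977 and 0.0580 CPM in C2C12 (5.45, adjusted p = 2.40e-06), while Ifit3 and Ifi27 were lower (-5.92 and -2.92). Of 11 tested immune checkpoint and NK ligand genes 4 were higher and 5 lower, and of 3 tested MHC class II genes 1 was higher and 1 lower. The checkpoint ligand Cd274 was at 5.31, 4.82, 5.54 and 4.83 CPM in EO771, against 0.419, 0.301, 0.363 and 0.319 CPM in C2C12 (3.69, adjusted p = 9.39e-08).

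Chemokines and cytokines were higher for 9 of 29 and lower for 15. Cxcl12, a stromal chemokine, averaged 0.0917 ± 0.113 CPM in EO771 and 807 ± 158 CPM in C2C12 (-13.27, adjusted p = 1.66e-09), and the alarmin Il33 0.0434 CPM in EO771 and 90.1 CPM in C2C12. Ccl2, which attracts monocytes, was higher in EO771, at 90.0, 68.5, 77.9 and 65.4 CPM, against 22.3, 16.7, 21.8 and 35.7 CPM in C2C12 (1.48, adjusted p = 4.41e-05). Ccl20 and Cxcl2 averaged 2.41 and 2.10 CPM in EO771 and were at 0 counts in C2C12. Cxcl1, a neutrophil attractant, was not called (0.19, SE 0.25, adjusted p = 0.495), but was higher without C2C12 R3-1 and R3-2 (0.69, adjusted p = 0.00327). Complement and acute phase genes were lower for 11 of 15 tested. Lcn2, an acute phase gene of epithelia, was at 37.9, 26.3, 22.5 and 25.6 CPM in EO771, against 0.0365, 0.0829, 0.0838 and 0 CPM in C2C12 (8.77, adjusted p = 2.55e-08).

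Genes of energy metabolism moved in both directions. Glycolysis and lactate genes were higher for 7 and lower for 17 of 27. Gapdh was at 5199, 5071, 5189.5 and 5297 CPM in EO771, against 1398, 1079.5, 919 and 1545 CPM in C2C12 (1.90, SE 0.15, adjusted p = 7.24e-07), while the next enzyme gene Pgk1 was lower (-1.75, adjusted p = 1.07e-06). The lactate transporters Slc16a1 and Slc16a3 were higher (1.78 and 2.26), and Ldhb was at 0 counts in EO771 and 5.44 CPM in C2C12. Nuclear genes of oxidative phosphorylation had a median of 0.21. Of 28 tested, 12 were higher, 6 lower and 10 not called, and only Cycs, cytochrome c, was at least 4-fold apart (2.12, adjusted p = 7.08e-08). Of 7 tested mitochondrially encoded genes 2 were higher, 2 lower and 3 not called. Hypoxia response genes were lower for 19 of 25 and higher for 5. The carbonic anhydrases Car9 and Car12, both hypoxia-induced membrane enzymes, went opposite ways. Car9 averaged 1.47 ± 0.505 CPM in EO771 and 187 ± 28.0 CPM in C2C12 (-7.16), and Car12 70.6 ± 10.6 CPM in EO771 and 5.88 ± 4.05 CPM in C2C12 (3.44). The mitophagy gene Bnip3 was lower (-4.97, adjusted p = 4.40e-07).

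**Figure D4:**
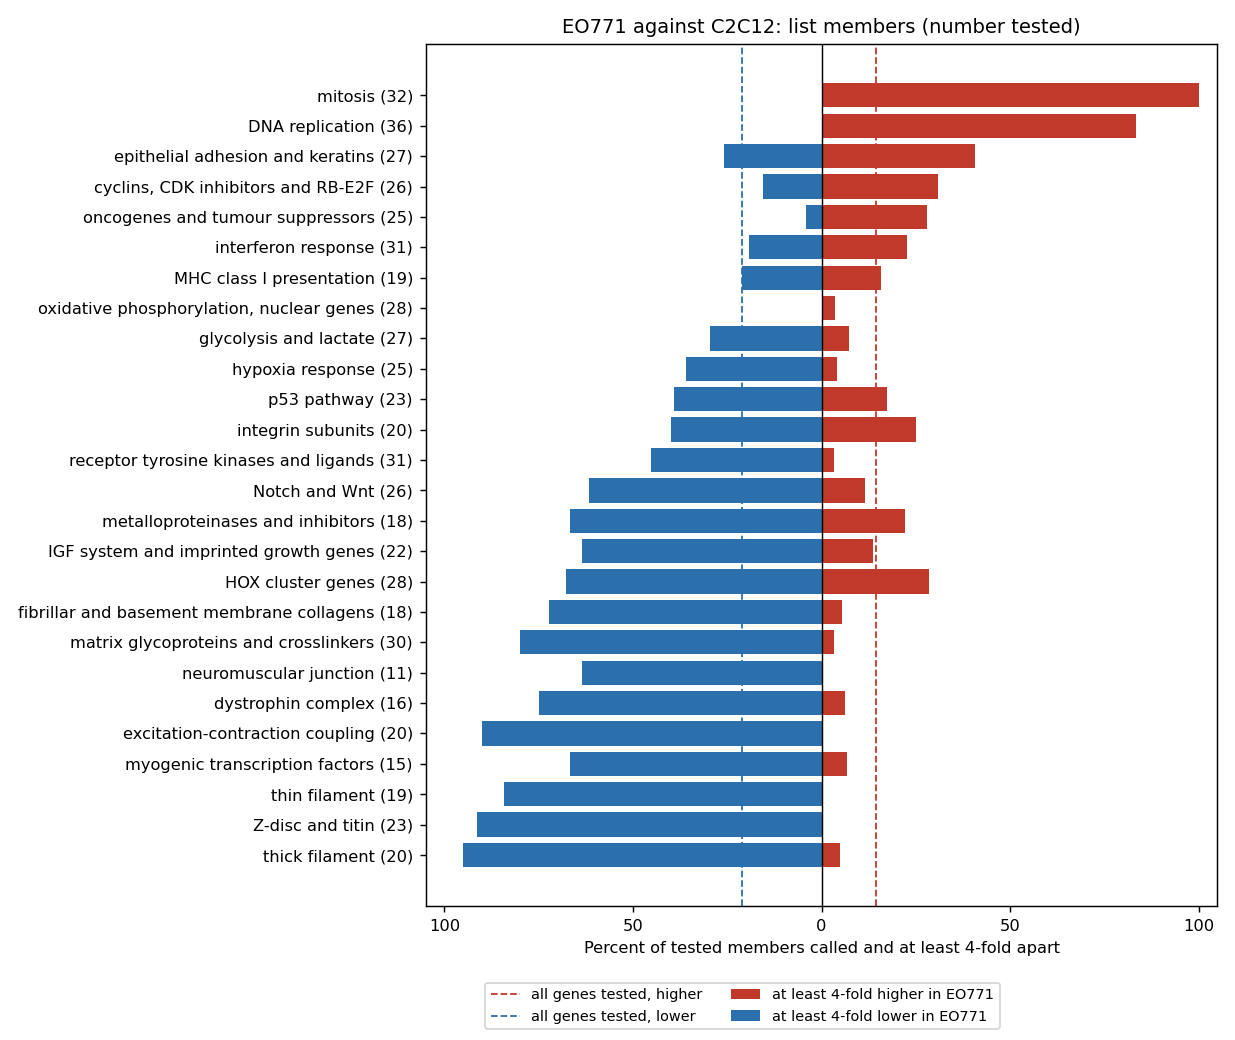
Percent of each list's tested members that were called and at least 4-fold higher (right) or lower (left) in EO771, with the number tested in brackets and dashed lines at the shares of all genes tested (14.4% higher, 21.0% lower). Mitosis and DNA replication lie far to the right and the muscle and matrix lists far to the left, while oxidative phosphorylation stays under the dashed lines.

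The genes furthest apart outside these lists were at 0 counts in one of the lines. Pnma5, an X-linked member of a family related to retroviral gag genes, was at 268, 280.4, 279.6 and 279 CPM in EO771 and 0 counts in C2C12, at least 26921-fold higher (adjusted p = 5.70e-10). The potassium channel gene Kcnq5, the protease-activated receptor gene F2rl1, Fam83g and Cfap58 averaged 57.8, 50.4, 45.9 and 34.6 CPM in EO771 and had 0 counts in C2C12. In the other direction Fbln1, a matrix protein, was at 0 counts in EO771, against 344, 389.9, 369.8 and 95.3 CPM in C2C12, at least 14364-fold lower (adjusted p = 5.02e-06). Brinp3, Islr, Inmt, Pmp22, Gprin3, Plpp3, Omd and Slc6a2 were also at 0 in EO771 and averaged 145 to 270.4 CPM in C2C12. Islr, Pmp22 and Plpp3 were expressed in MLg fibroblasts as well, grown alone, at 207, 383 and 69.7 CPM (means, n = 4), while Inmt, Gprin3 and Slc6a2 stayed under 1 CPM there.

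Gene position was examined because the comparison did not use it. The X chromosome had the lowest median of any chromosome, -0.70 over 497 tested genes, with 149 higher and 277 lower, against an all-gene median of -0.12. In DESeq2, which tested more low genes, the X was at -0.12, against an all-gene median of 0.04, and with library totals in edgeR at -0.52, against 0.06. Chromosome 19 had the highest median in edgeR, at 0.18. Xist, the RNA of the inactive X, was at 0.293, 0.154, 0.285 and 0.112 CPM in EO771, against 801, 748, 996 and 864 CPM in C2C12 (-12.16, SE 0.23, adjusted p = 1.19e-10). Kdm6a, which escapes inactivation in mice, was lower (-2.31, adjusted p = 2.69e-09), and Ddx3x was not called (-0.22, adjusted p = 0.117).

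Genes near 0 in one line were also looked for in runs along the chromosomes. Protein-coding genes under 1 CPM in both lines were passed over, so a run may span genes that are not members, and runs covered 37.2 to 6006 kb. Runs of at least 3 genes under 0.1 CPM in one line and at least 1 CPM in the other numbered 56 in EO771, with 210 genes, and 7 in C2C12, with 28 genes. Of these runs 7 were on the X in EO771 and 1 in C2C12. An example is Armcx4, Armcx1, Armcx6, Armcx3, Armcx2 and Zmat1 (chrX:134686519-135009209 in the GENCODE M21 annotation of GRCm38), and others were the start of the Hoxa cluster (chr6:52155590-52221854) and Tril to Mturn (chr6:53815468-54703851). The X-linked run in C2C12 held 7 Rhox genes (chrX:37213804-37673277), and the others included Hoxd4 to Hoxd10 and Hoxb3 to Hoxb6. Some runs held members of the same gene family, such as Myh2, Myh1, Myh4 and Myh8 in EO771. How many single genes met these bounds in each line was not counted. More tested genes were at 0 in EO771 (669) than in C2C12 (224), so the numbers of runs have no baseline here and were not tested.

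In windows of 50 neighbouring tested genes the lowest median was on chromosome 6 (chr6:52156902-58920398), at -6.26, with 34 genes lower, 13 higher and 16 at 0 in all EO771 libraries. The lower genes included the tested Hoxa genes from Hoxa2 to Hoxa13, so this window overlaps the HOX genes and the runs described above. Genes near 0 in EO771 alternated there with well expressed ones. Scrn1 averaged 0.0285 CPM in EO771 and 137 CPM in C2C12. The water channel gene Aqp1 was lower but not near 0 in EO771, at 6.72 CPM, against 869.6 CPM in C2C12. Between them Gars, a tRNA synthetase gene, averaged 599.6 ± 52.6 CPM in EO771 and 111 ± 5.49 CPM in C2C12 (2.25, adjusted p = 4.49e-09). MLg fibroblasts expressed Scrn1 at 71.7 CPM and Aqp1 at 23.9 CPM.

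The highest window was on chromosome 9 (chr9:31089402-37657312), at 2.10, with 37 genes higher and 9 lower. The window was picked for its high median, so a majority of higher genes follows from that choice. Of its 34 protein-coding genes 27 were higher, against 5065 of 13435 protein-coding genes tested in all. In mean CPM 26 were above both C2C12 and MLg, and the share of all genes above both was not counted. The transcription factor Ets1 was at 338, 407, 524 and 416 CPM in EO771, against 53.1, 54.7, 52.9 and 54.2 CPM in C2C12 (2.79, SE 0.13, adjusted p = 2.03e-08), and averaged 38.3 CPM in MLg. The signal recognition particle receptor gene Srpr averaged 1238 ± 65.2 CPM in EO771, 205 ± 8.72 CPM in C2C12 and 184 CPM in MLg. The decapping enzyme Dcps averaged 257 ± 5.17 CPM in EO771, 30.1 ± 4.17 CPM in C2C12 and 33.7 CPM in MLg, and the chromatin gene Nfrkb 261 ± 19.2 CPM in EO771, 38.9 ± 2.37 CPM in C2C12 and 53.6 CPM in MLg. The median log2 ratio of EO771 to MLg (0.5 CPM added to each) was 1.15 over this window and 0.02 over all tested genes. This ratio and the count of 26 genes use the EO771 values that picked the window, so neither is independent of that choice. DNA copy number was not measured, and its part in the result was not tested.

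**Figure D5:**
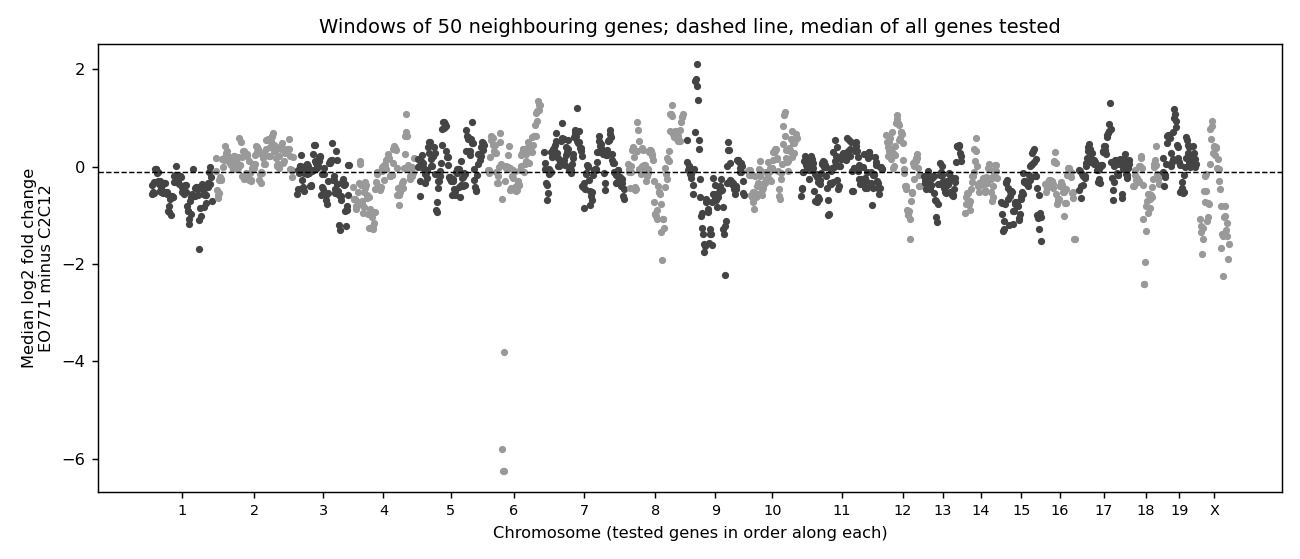
Median log2 fold change (EO771 minus C2C12) of windows of 50 neighbouring tested genes, in order along each chromosome, with the median of all genes as a dashed line. The lowest window is on chromosome 6 at -6.26 and the highest is on chromosome 9 at 2.10.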

How the data were processed

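Polyadenylated RNA was sequenced from 8 stranded libraries, per the labels' protocols. The authors deposited whole-number read counts per gene, and per the submitters' processing notes fastp, STAR 2.7.10a and featureCounts (Subread 2.0.1) were used. The sources used here do not give the genome build, annotation or strand setting of the counting, so overlapping and antisense genes are uncertain, and members of multicopy families (Rhox2, H2-Q) may share reads. Even counts were the more frequent (42.5 to 44.1% of the counts above 0 were odd in these libraries), so both mates of a fragment may have been counted, and 2 counts may stand for 1 fragment. All 55536 gene IDs matched GENCODE M21 (GRCm38), from which names and positions were taken.

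The counts as deposited were tested with edgeR 4.0.16 (R 4.3.3) by the quasi-likelihood F test, TMM factors and 1 mean per line, after filterByExpr (minimum count 10, minimum total 15). SE is the absolute log2 fold change over the square root of F. Totals of 34088050 to 96491326 counts gave a chi-square of at least 15.3 per degree of freedom between libraries of a line, so spread exceeded counting error, and a fold against 0 counts uses 3 counts over the group. If 2 counts stand for 1 fragment, the folds given as "at least" are too high as lower bounds. In simulated counts for 14998 genes, 36 of 50 genes lowered 2-fold and 35 of 50 raised 2-fold were called, against 0.0811% of unchanged genes. The simulation drew both lines from the C2C12 means and changed few genes. Most genes differed between the real lines, so these rates may not hold for them. Alternatives were a filter at 1 CPM or none, RLE factors, library totals, DESeq2 1.42.0, all 12 libraries of lines grown alone, thinned counts, the R number as a block, R3 libraries only, and libraries left out.

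The R number was not taken as pairing. Members and lists were chosen with earlier results of these data known. By rule the text names, per direction, 12 called genes of at least 20 CPM with the largest difference, and per list up to 4 with the largest difference, up to 2 against the direction of most and those not called; genes named for their role in a pathway, and those under gene position, were chosen after their values were seen. Some genes that the rule takes are not reported here, and co-cultured libraries were not analysed here.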

Additional observations from a re-analysis of the deposited data

Results flagged for a closer look

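A library that stood far from the others of its line was looked for in each gene named and each line with at least 5 CPM, by the gap to the next library as a share of the range over 4 libraries. Of 321 such groups 14 were picked out, and chance alone picks out about 5% of groups. In 10 of them the library was C2C12 R5-1. It was the highest for Kcnj2 (254 CPM, the others 200.1 to 203), Lpl (71.9 CPM, 19.9 to 25.4), Bax (33.4 CPM, 16.6 to 18.4), Mcm5 (10.6 CPM, 5.71 to 6.23) and Pax7 (15.0 CPM, 0.684 to 2.92). It was the lowest for Aqp1 (377 CPM, 993 to 1109), Fbln1 (95.3 CPM, 344 to 389.9), Fn1 (22054 CPM, 28631 to 29793), H2-K1 (126 CPM, 142 to 144) and Ifi27 (107 CPM, 121 to 123). C2C12 R3-2 was the highest for Btg2 (97.5 CPM, 40.2 to 48.3). EO771 R3-1 was the lowest of its line for F2rl1 (38.4 CPM, 53.6 to 55.3), Sesn2 (114 CPM, 135 to 139) and Pnma5 (268 CPM, 279 to 280.4). Each gene kept the call and the direction given above without the library concerned.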

How the results depend on the processing

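The counts of genes called stayed within 1.5 times under the 18 alternatives, at 5498 to 7298 higher and 6339 to 8993 lower, and at 1871 to 3540 and 2977 to 5101 for at least 4-fold. Leaving out 1 library at a time gave 6071 to 6241 higher and 6879 to 7414 lower, and 2463 to 2542 and 3379 to 3871 for at least 4-fold. Without C2C12 R3-1 and R3-2 there were 6302 higher and 7237 lower, and with the R3 libraries alone 6189 and 7156. Libraries with the same R number did not deviate together across lines (correlations of deviations from the line's mean -0.059 to 0.020). With the R number as a replicate block 5869 genes were higher and 6882 lower, and 2429 and 3451 at least 4-fold.

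Of 238 tested genes named, 225 kept their side of the threshold under every alternative that tested them, and none reversed. Of the other 13, Col4a1 and Flnc lost their call with library totals (-0.31 and -0.23, adjusted p = 0.142 and 0.225) and under several other settings, while Itgb1 (-0.20, adjusted p = 0.0474) gained one in DESeq2. The cause was not tested. Of the counts of list members at least 4-fold apart 73 of 100 stayed within 1.5 times throughout. Depth limits genes near 0: 3 counts over a line correspond to 0.0209 CPM in EO771 and 0.0103 CPM in C2C12.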

Other observations

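The lists in these paragraphs were put together after the values had been seen, so their counts describe genes and test nothing. Several genes known from blood cells were expressed in EO771, a line in which Ptprc was at 0 counts. Of 45 genes of leukocyte signalling and cytoskeleton 29 were tested, 20 higher and 6 lower, against 37.2% higher and 43.4% lower among all genes tested. Arhgap30, which encodes a GTPase-activating protein, was at 179, 212, 171 and 161 CPM in EO771, against 0.109, 0, 0.0838 and 0.145 CPM in C2C12 (10.98, edgeR adjusted p = 1.44e-09). The lysosomal membrane gene Laptm5 was at 28.8, 34.4, 34.2 and 32.1 CPM in EO771 and 0 counts in C2C12, at least 3151-fold higher (adjusted p = 8.21e-09). The exchange factor Vav1, which acts below lymphocyte receptors, averaged 29.1 ± 4.21 CPM in EO771 and 0.00698 CPM in C2C12.

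Genes normally limited to germ cells or early embryos were expressed in EO771 too. Of 49 such genes 23 were tested, 17 higher and 2 lower. Tex11, a meiotic gene on the X, was at 34.4, 28.4, 32.7 and 31.4 CPM in EO771 and 0 counts in C2C12, at least 3088-fold higher (adjusted p = 1.02e-08), and Morc1, needed in spermatogenesis, at 30.8, 28.9, 28.2 and 29.8 CPM in EO771 and 0 counts in C2C12, at least 2862-fold higher (adjusted p = 6.80e-09). Dppa4, a gene of pluripotent cells, was at 129, 110.3, 92.2 and 100.4 CPM in EO771, against 0.146, 0.290, 0.168 and 0.0145 CPM in C2C12 (9.14, adjusted p = 8.10e-09), while Pou5f1, Nanog and Zfp42 were under 1 CPM in both lines. Of 42 Rhox genes, reproductive homeobox genes in 1 cluster on the X, 11 were tested and all were higher in EO771. The Rhox list summed to 722, 728, 623 and 684 CPM in EO771, against 2.66, 4.55, 4.54 and 1.01 CPM in C2C12. Rhox5 averaged 439 ± 41.8 CPM in EO771 and 2.89 ± 1.94 CPM in C2C12, and the copies of Rhox2 and Rhox4 may share reads.

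The X-linked Armcx, Bex, Tceal and Gprasp genes went the other way, 13 of 14 tested lower and 1 higher in EO771. Of 10 DNA methylation and demethylation enzymes 7 were higher and 3 lower. The maintenance enzyme Dnmt1, also in the replication list, averaged 394 ± 49.4 CPM in EO771 and 56.9 ± 2.90 CPM in C2C12 (2.61, adjusted p = 2.92e-09), and Tet1, which oxidises methylated cytosine, 0.692 ± 0.282 CPM in EO771 and 7.52 ± 3.02 CPM in C2C12 (-3.60, adjusted p = 1.06e-05).

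Genes often used to scale quantitative PCR were not all level. Of 16, 8 were higher, 3 lower and 5 not called, against 37.2% higher and 43.4% lower among all genes tested. Only 1 was at least 4-fold apart, against 35.4% of all genes tested, so they differed less than genes in general. The transferrin receptor gene Tfrc averaged 728 ± 79.9 CPM in EO771 and 33.0 ± 16.5 CPM in C2C12 (4.303, adjusted p = 4.33e-07), and B2m 301 ± 41.9 CPM in EO771 and 528 ± 58.4 CPM in C2C12 (-0.998, adjusted p = 3.89e-05). Hprt, Ywhaz and Eef1a1 were among those not called, with differences of -0.00, 0.05 and 0.08. With library totals in place of TMM factors, Ywhaz and Eef1a1 were called higher (0.23 and 0.27, edgeR adjusted p = 0.0119 and 0.0395). Of 101 tested snoRNA genes 88 were higher and 1 lower in EO771 (median 2.13); most lie inside introns of other genes, so their reads and those of unspliced host RNA cannot be told apart.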
